A study of Mus musculus with 14 samples.

Results

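A miRNA whose 5′ end starts 1 base downstream of the annotated position is called here its +1 form. The table holds 2030 entries, of which 330 are +1 forms, and the 108 of these with a value of at least 10 RPM (reads scaled to a library total of 1000000) in at least 3 of the 14 libraries are described here. They were chosen by these RPM values alone. The header does not define the name suffix, which here was read as the distance of the start from the annotated one. The other 222 +1 entries stayed below the limit. Just inside it, by their third-highest value, were the +1 forms of miR-5117-3p (10.03 RPM), miR-293-3p (10.16) and miR-222-3p (10.31). Just outside were those of miR-1198-5p (9.78), miR-30b-5p (9.64) and miR-130b-3p (9.62).

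The libraries come from small intestine of C57BL/6J mice with a Sox9-eGFP reporter, in which green fluorescence follows the Sox9 gene, so every sample shares this reporter and background. Cells had been separated by fluorescence into High, Low, Sublow and Negative populations with 3 libraries each, and 2 libraries of Non-sorted cells were made. No treatment or age is given in the labels. In this reporter mouse, High cells are known for endocrine features, Low cells for stem cell activity, Sublow cells for transit-amplifying progenitors and Negative cells mostly for differentiated types. Whether the libraries of one group stem from different animals is not in the labels, so a p-value here reflects spread between libraries, which may be technical.

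A miRNA guides its protein partner to messenger RNAs mainly through its seed, bases 2 to 8 counted from the 5′ end. Drosha and Dicer set the 5′ end when they cut the precursor, and a cut that lands 1 base further in moves the seed by 1 base. The +1 form of a miRNA therefore reads bases 3 to 9 of the annotated sequence as its seed, and can resemble another miRNA in this stretch. Mature sequences were taken from RefSeq (GRCm38.p6) and matched 93 of the 108 members, under 81 mature names with 58 distinct +1 seeds.

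The members below carry the main results, each printed at its annotated length with the seed of the +1 form in capitals. The first base of each line is missing from the +1 form. miR-192-5p and miR-215-5p are shown because they share the shifted seed and are both abundant in gut epithelium, and miR-203-3p, miR-183-5p, miR-140-3p, miR-10a-5p and miR-1839-5p because their +1 forms are frequent relative to the annotated start.
miR-192-5p: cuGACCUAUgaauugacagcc
miR-215-5p: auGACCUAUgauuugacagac
miR-203-3p: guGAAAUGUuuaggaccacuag
miR-183-5p: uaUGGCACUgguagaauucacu
miR-140-3p: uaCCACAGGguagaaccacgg
miR-10a-5p: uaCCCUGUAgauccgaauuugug
miR-1839-5p: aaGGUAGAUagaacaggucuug

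In 3 further cases the shifted seed is the ordinary seed of another miRNA. These are shown as pairs, the first line with the +1 seed in capitals and the second line with the seed of the annotated form in capitals.
let-7g-5p: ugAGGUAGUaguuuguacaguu
miR-196a-5p: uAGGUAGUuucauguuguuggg
miR-27b-3p: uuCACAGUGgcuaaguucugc
miR-128-3p: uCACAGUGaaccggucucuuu
miR-17-5p: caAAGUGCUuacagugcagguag
miR-291a-3p: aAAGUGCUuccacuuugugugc

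Depth, estimated from the step between low values, was 1.89 M to 16.4 M reads per library (M stands for 1000000), and the lowest listed value was worth 9.98 to 10.9 reads, so a value of 0 means below about 10 reads. Summed epithelial miRNA markers (8 of 8 listed) lay at 201521 to 235198 RPM in High libraries and 584881 to 590153 in Negative libraries. Endocrine markers (3 of 3 listed) ran from 174117 to 200307 RPM in High down to 4223 to 5920 in Negative libraries. The erythroid pair (miR-451a and miR-144-3p) was at 0 throughout, and endothelial miR-126a-3p reached at most 3.83 RPM. Haematopoietic markers (5 of 5 listed, miR-142a-3p at 0 throughout) summed to 6.51 to 213. Mesenchymal markers (5 of 6 listed) summed to 29.3 to 139, with miR-145a-5p and miR-214-3p not listed or at 0. Only annotated starts enter these sums. In these bulk libraries fewer cells of a type and less miRNA per cell cannot be told apart. miR-295-3p, a miRNA of embryonic stem cells, was listed in 7 libraries (both Non-sorted, Negative replicates 1 and 2, and replicate 2 of High, Low and Sublow) and at 0 in the other 7, and results are also given without those 7.

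The +1 forms made up a small and steady part of the miRNA reads. The 108 members together took 4.96% ± 0.219 (SD, n = 3) of the total in High and 4.75% ± 0.239 in Low libraries. They took 4.81% ± 0.0255 in Sublow, 4.28% ± 0.248 in Negative and 4.43% ± 0.265 (n = 2) in Non-sorted libraries. miR-192-5p, the leading miRNA of gut epithelium under hepatocyte nuclear factor control, gave the most abundant of them, at 1.76 to 2.57% of all reads by group. Mean levels of 8 members exceeded 1000 RPM, 35 lay at 100 to 1000, 50 at 10 to 100 and 15 below 10. Arms were 57 of 5p, 46 of 3p and 5 without an arm in the name. In 84 members the +1 form was listed in all 14 libraries, 82 reached 10 RPM in every group, and miR-181d-5p (in Low) and miR-183-3p (in High) reached it in 1 group only.

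**Figure D1:**
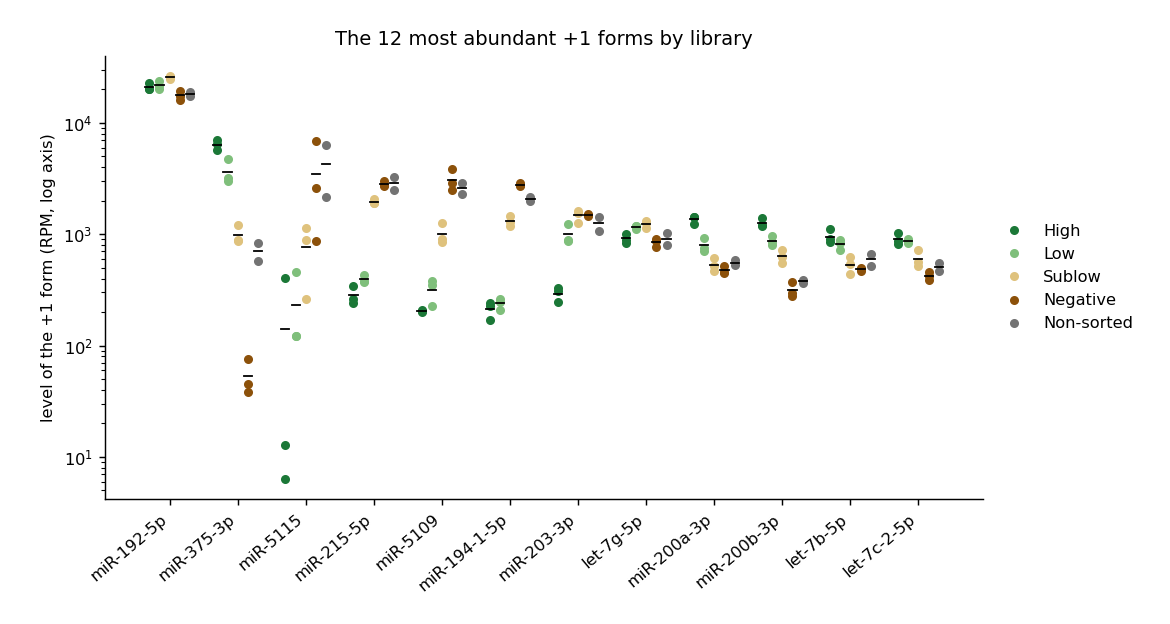
Level of the 12 most abundant +1 forms (y axis, RPM, log scale) in each library, with points coloured by population and a black bar at the group mean. The +1 form of miR-375-3p spans from 7040.2 RPM in a High library to 38.0 in a Negative library, while that of miR-192-5p stays between 16121 and 26208.

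Relative to the annotated start, most +1 forms were rare. The ratio of their mean levels had a median of 0.0369 over the 108 members, with 81 at or below 0.1, 24 below 0.02 and 20 between 0.1 and 1, and the lowest was 0.00786 for miR-103-1-3p. In 7 members the +1 form exceeded the annotated start, and these were also the 7 in which it was the most abundant of all listed starts, against 98 in which the annotated start was. The 7 are miR-140-3p, miR-183-3p, miR-292-3p, miR-361-3p, miR-3096-5p, miR-5109 and miR-5121. Of these, miR-183-3p and miR-5121 had an annotated mean below 10 RPM. The annotated start of miR-183-3p was listed only in High replicate 1 and Sublow replicates 1 and 2. The +1 form of miR-292-3p was listed in only 7 libraries. For miR-140-3p, a miRNA known from cartilage, the +1 form stood at 305, 251 and 399 RPM in High, 196, 189 and 206 in Low, 219, 249 and 261 in Sublow, 276, 321 and 231 in Negative, and 248 and 149 in Non-sorted libraries. Its annotated start lay at 41.1 to 103 RPM, below the +1 form in every library, so the ratio was 2.74 to 6.1. Of the reads at all 8 listed starts of miR-140-3p, 72.9 to 77.9% by group were the +1 form. miR-361-3p, with +1 levels of 20.1 to 44.2 RPM, was less one-sided, since its annotated start was the higher in 5 of 14 libraries. Counted from the annotated start, the most abundant start lay at +6 for miR-5105 and at -4 for miR-5117-3p and miR-122-5p. Whether the listed starts of these members or of miR-5109 are cuts by Drosha or Dicer was not tested.

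Some members of 1 family or cluster had very different ratios. miR-192-5p and miR-215-5p differ little in sequence and share the +1 seed, yet the ratio of mean levels was 0.213 for the first and 0.00821 for the second. In the polycistronic sensory cluster, the ratio was 0.439 for miR-183-5p and 0.00855 for miR-182-5p. Others were alike, with 0.0368 for miR-7a-1-5p and 0.0410 for miR-7b-5p. Within let-7, which restrains growth and developmental genes, ratios at the 5p arm ran from 0.0106 for let-7b-5p to 0.0683 for let-7g-5p. The Hox-cluster pair miR-10a-5p and miR-10b-5p stood at 0.653 and 0.241.

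The level of the +1 forms followed the sorted population. The test was limma's moderated fit of log2(RPM + 1) with all 5 groups over the 588 entries past the same limit, with Benjamini-Hochberg adjustment and a threshold of 0.05, and comparisons with Low share the Low libraries. Among the 4 sorted populations 84 of 108 members (77.8%) differed, against 72.3% of all tested entries. Between High and Low, 39 members differed (28.1% of all entries), with 11 higher (7.99% of all) and 28 lower (20.1%) in High. From Low to Sublow 53 differed (34.7% of all), with 13 higher (10.4%) and 40 lower (24.3%). From Sublow to Negative 37 differed (35.5% of all), with 7 higher (8.67%) and 30 lower (26.9%). Between Low and Negative 80 differed (66% of all), with 14 higher (16.5%) and 66 lower (49.5%) in Negative cells. A member that passed the limit only through one population had to differ, so these counts describe the members that passed and are no support for a difference of their own.

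The share of higher against lower calls depended on the scaling. A median-ratio rescaling of libraries moved member values up by a median of 0.32 on the log2 scale for High against Low, 0.39 for Sublow against Low, 0.46 for Negative against Sublow and 0.85 for Negative against Low. With it, calls were 15 higher and 11 lower for High against Low, 17 and 14 for Sublow against Low, 12 and 11 for Negative against Sublow, and 21 and 31 for Negative against Low. The +1 forms of let-7g-5p and miR-192-5p were called lower in Negative than in Low cells as deposited (-0.47 and -0.31) and higher after rescaling (0.41 and 0.57). The High against Low count was 25, 25, 22 and 24 when High replicate 1 or Low replicate 1, 2 or 3 was left out. The ratio to the annotated start is taken within a library, so such scalings cancel in it apart from the pseudocount.

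The ratio, by contrast, moved little. Over the 84 members listed in every library, the level differed between the highest and the lowest sorted population by a median of 2.62-fold and by over 2-fold in 63 members. The ratio differed by a median of 1.24-fold, by under 1.5-fold in 64 members and by over 2-fold in 3, miR-22-3p, miR-200b-5p and miR-7a-1-3p, with 2.19-fold in miR-7a-1-3p as the highest. miR-375-3p, the abundant miRNA of endocrine cells, had the widest range of level. Its +1 form was at 6458, 7040.2 and 5652 RPM in High, 4735, 3194 and 3025 in Low, 862, 1208 and 891 in Sublow, 38.0, 44.8 and 76.2 in Negative, and 833 and 578 in Non-sorted libraries. The 4 sorted populations did not overlap, and the mean was 120-fold lower in Negative than in High. Its ratio meanwhile was 0.0483 to 0.0546 in High and 0.0578 to 0.0736 in all other libraries, so the High libraries lay lowest.

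**Figure D2:**
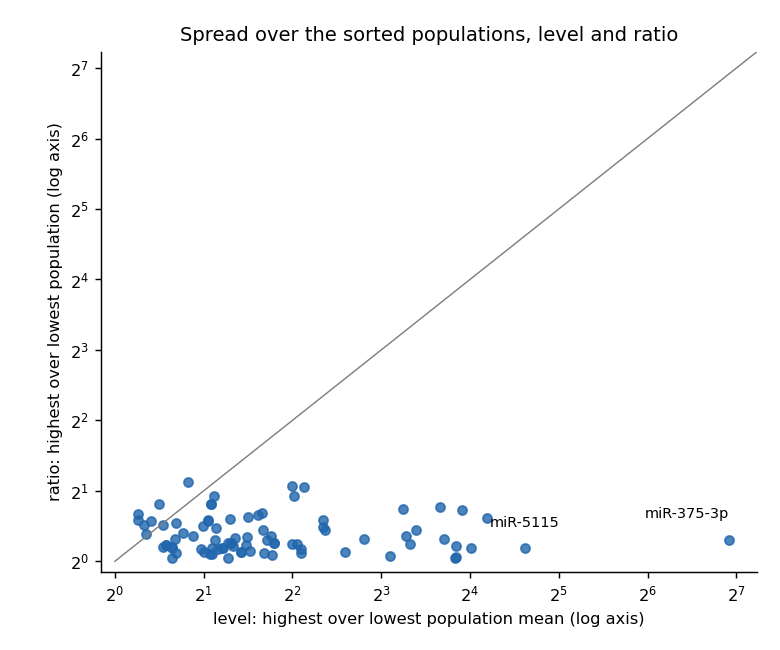
For each of the 84 members listed in all libraries, the highest over the lowest sorted population mean of the level (x axis, log scale) against the same for the ratio to the annotated start (y axis, log scale). The line marks equal spread, and the ratio spans at most 2.19-fold while the level of miR-375-3p spans 120-fold.

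The change of a +1 form was close to that of its annotated start in most members. In Negative against Low cells the median absolute change of level was 1.27 on the log2 scale and the median absolute change of the ratio was 0.18. Over all 310 shifted entries that could be given a ratio, the latter was 0.29. The 95% confidence interval of the ratio difference stayed within 2-fold in 72 of 108 members for Negative against Low, 70 for High against Low, 79 for Sublow against Low and 77 for Negative against Sublow. It stayed within 1.5-fold in 45 to 49 members.

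**Figure D3:**
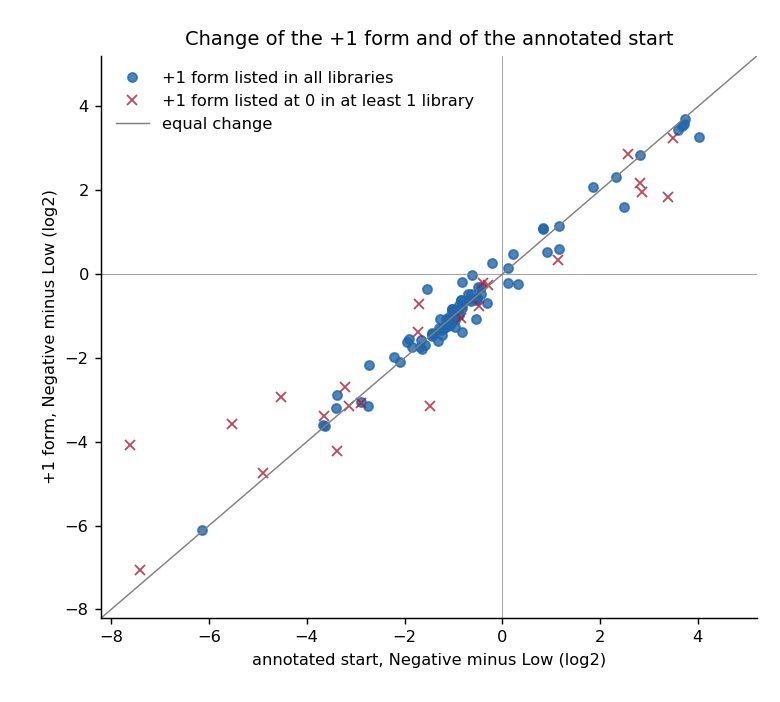
Change from Low to Negative cells on the log2 scale for the annotated start (x axis) and the +1 form (y axis) of each member. Circles are members listed in all libraries, crosses those at 0 in at least 1 library, and the line marks equal change. The y values run from -7.05 for miR-7b-5p to 3.71 for miR-5115.

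A difference in ratio among the sorted populations was found for 8 of 108 members (7.41%), against 12.3% of the 310 shifted entries of any start, by limma on log2((+1 form + 1)/(annotated start + 1)). At an unadjusted p under 0.05 there were 22. The 8 were miR-378-3p (F = 28.1, adjusted p = 0.00081), miR-7a-2-3p (0.00102), miR-221-3p (0.00219), miR-203-3p (0.0241), miR-183-5p (0.0243), miR-1839-5p (0.0323), miR-215-3p (0.0337) and miR-320-3p (0.0433). miR-192-5p (adjusted p = 0.0504), miR-5109 (0.0535) and miR-375-3p (0.0538) narrowly missed the threshold. For High against Low limma called 1 member (2.58% of all fitted entries), 0 higher (0.968%) and 1 lower (1.61%). For Sublow against Low it called 0 (0% of all), with 8 members at an unadjusted p under 0.05. For Negative against Sublow it called 1 (1.61%), which was higher (1.29%), with 0 lower (0.323%). For Negative against Low it called 4 (4.52%), 1 higher (1.61%) and 3 lower (2.9%). The higher call in both comparisons with Negative is miR-7a-2-3p, whose ratio there is set by the pseudocount.

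miR-378-3p, linked to mitochondrial metabolism and differentiation, had the clearest gradient of ratio. The ratio was 0.0499, 0.053 and 0.0464 in High, 0.0428, 0.0382 and 0.0395 in Low, 0.035, 0.0354 and 0.0337 in Sublow, 0.0311, 0.0288 and 0.0324 in Negative, and 0.0326 and 0.0321 in Non-sorted libraries. The 4 sorted populations did not overlap, and their order followed Sox9-eGFP fluorescence. The level ran the other way, from a mean of 206 RPM ± 12.1 (SD, n = 3) in High to 649 ± 54.8 in Sublow and 608 ± 55.6 in Negative cells. Between Negative and Low the ratio fell by 0.38 on the log2 scale (SE 0.08, limma adjusted p = 0.0164), a call lost without Low replicate 1 or Negative replicate 1 or 2 (adjusted p up to 0.092).

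miR-203-3p, a miRNA known for driving exit from the cycle in differentiating epithelium, had a +1 form almost as frequent as its annotated start in 3 sorted populations. The ratio was 0.786, 0.975 and 0.919 in High, 0.811, 0.944 and 0.894 in Low, 0.835, 0.863 and 0.854 in Sublow, and 0.606, 0.572 and 0.607 in Negative libraries. Negative libraries lay below all other sorted libraries. The Non-sorted pair split, at 0.612 and 0.926. As a share of all 11 listed starts of miR-203-3p, the +1 form took 45.8% ± 1.71 in Low and 36.4% ± 0.804 in Negative cells. The ratio fell by 0.57 from Low to Negative (SE 0.13, limma adjusted p = 0.0296), while the level of the +1 form rose by 0.60 (adjusted p = 0.00909) and that of the annotated start by 1.17. The fall of the ratio was lost without Low replicate 2 or 3 or any 1 Negative library (adjusted p up to 0.138).

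miR-183-5p, of the sensory cluster, had its highest ratio in High cells, at 0.491, 0.477 and 0.474. Low libraries had 0.419, 0.449 and 0.386, Sublow 0.341, 0.347 and 0.37, Negative 0.427, 0.388 and 0.35, and Non-sorted 0.404 and 0.407. High libraries lay above all others, while Low and Negative overlapped. miR-320-3p, made without Drosha, likewise had its highest ratios in High, at 0.1 to 0.115 against 0.0799 to 0.0923 in Low, 0.0684 to 0.083 in Sublow and 0.065 to 0.0725 in Negative libraries. For miR-1839-5p the order was the other way, with 0.153 to 0.231 in High and 0.287 to 0.364 in Negative libraries. For miR-215-3p the ratio was 0.0188 to 0.0285 in High and 0.0116 to 0.0138 in Sublow libraries.

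The ratio of miR-192-5p, the most abundant member, was 0.227, 0.202 and 0.195 in High, 0.209, 0.171 and 0.18 in Low, 0.302, 0.22 and 0.279 in Sublow, 0.21, 0.195 and 0.234 in Negative, and 0.212 and 0.197 in Non-sorted libraries. Sublow lay above Low without overlap, by 0.51 on the log2 scale (SE 0.12, adjusted p = 0.0905). For miR-5109 the ratio was 2.02 to 2.37 in Low and 1.12 to 1.43 in Negative libraries, a fall of 0.74 (SE 0.17, adjusted p = 0.0296), lost without Low replicate 2 or 3 or Negative replicate 1 or 2 (up to 0.138). Of the reads at all 17 listed starts of miR-5109, the +1 form took 21.4% ± 1.29 (SD, n = 3) in Low and 21.5% ± 1.19 in Negative libraries, and the annotated start 9.99% ± 1.03 and 16.8% ± 1.18.

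**Figure D4:**
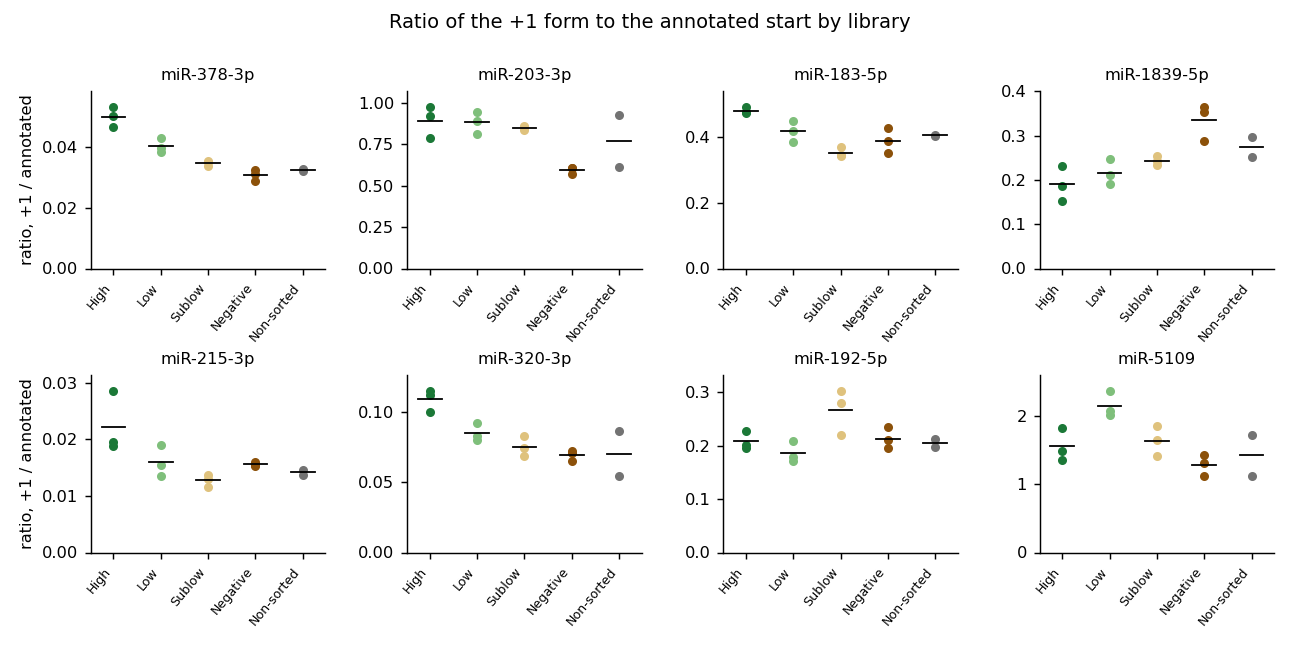
Ratio of the +1 form to the annotated start (y axis, from 0) in each library for the 8 members of the ratio comparison with the smallest p and a mean of at least 50 RPM in their highest group; black bars are group means. miR-378-3p steps down from 0.053 to 0.0288 across the sorted populations, and miR-203-3p is lower in Negative libraries (0.572 to 0.607) than in the other sorted ones.

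All ratio calls of miR-221-3p and miR-7a-2-3p, the F calls included, rested on values near the detection limit. The +1 form of miR-221-3p, which targets a cell cycle inhibitor, was at 1.58, 0 and 0 RPM in High and 18.9, 23.5 and 22.4 in Low libraries, with the annotated start at 158 to 209 and 557 to 676. The ratio difference of -2.32 (SE 0.34, adjusted p = 0.00167) was lost with a pseudocount of 5. For miR-7a-2-3p the +1 form was at 0 in all Negative libraries and the annotated start at 0, 0 and 1.75, so the ratio is set by the pseudocount. Its calls as higher in Negative than in Sublow (limma adjusted p = 0.00251) and Low (0.00223) were lost with a pseudocount of 0.1. They are no rise of the +1 form.

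Most of these ratio calls depended on the libraries used. With the lane code of the sample descriptions as a term in the model, limma called 1 member among sorted populations, miR-7a-2-3p, whose ratio is set by the pseudocount, and 0 for Negative against Low. miR-378-3p (adjusted p = 0.0555) and miR-221-3p (0.0743) lost their F call with this term. That code is shared in part with the populations: 1 Low and 1 Negative library had the same one, and between them the ratio differed by -0.42 for miR-203-3p, -0.40 for miR-378-3p and -0.49 for miR-5109. High libraries share no code with Sublow or Negative libraries, and High replicate 3 is alone in its code. The term thus ties High to Sublow and Negative through Low only. A call lost with it cannot tell a lane effect from this overlap. With only the 7 libraries that do not list miR-295-3p, 0 members were called in any ratio comparison. That subset has 2 High, 2 Low, 2 Sublow and 1 Negative library, and the lone Negative library is assumed to vary like the others. In it the ratio differed between Negative and Low by -0.49 for miR-203-3p, -0.34 for miR-378-3p and -0.51 for miR-5109. The count among sorted populations was 5 without High replicate 2, Sublow replicate 3 or Negative replicate 2, and 4 without Sublow replicate 1, Negative replicate 1 or Negative replicate 3. For Negative against Low it was 2 without Low replicate 2 or 3, and 1 without Negative replicate 1 or 2. For High against Low it was 3 without High replicate 1 and 2 without High replicate 2 or Low replicate 3, and for Negative against Sublow it was 2 without either Non-sorted library. For Sublow against Low it was 1 without Low replicate 1 or 3 or Sublow replicate 2. miR-378-3p (F test), miR-221-3p and miR-7a-2-3p kept their calls among sorted populations without any single library. The F call was lost for miR-203-3p without any 1 Negative library (adjusted p up to 0.107), and for miR-183-5p without High replicate 1 or 2 or Sublow replicate 1 (up to 0.0696). It was lost for miR-1839-5p without High replicate 1 or 2, Sublow replicate 1 or 3, or Negative replicate 1 or 3 (up to 0.117). For miR-215-3p it was lost without High replicate 1 or 2 or any 1 Sublow or Negative library (up to 0.0944). For miR-320-3p it was lost without any 1 High or Negative library, Low replicate 2 or 3, or Sublow replicate 1 or 3 (up to 0.155).

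By regulatory group, the +1 forms under hepatocyte nuclear factor control rose toward Negative cells. Of 7 members of miR-192, miR-194 and miR-215, 5 rose and 0 fell from Low to Sublow, and 5 rose and 1 fell from Low to Negative (7 rose after rescaling, where 2 members, miR-192-5p among them, change sign). Over all 588 entries as deposited, 10.4% rose and 24.3% fell from Low to Sublow. From Low to Negative, 16.5% rose and 49.5% fell. miR-194-1-5p stood at 226, 171 and 239 RPM in High, 247, 210.5 and 262 in Low, 1454, 1189 and 1294 in Sublow, and 2778, 2870.2 and 2703 in Negative libraries. High and Low overlapped, and Sublow and Negative each lay clear above them. The change from Low to Negative was 3.54 (SE 0.14, limma adjusted p = 2.17e-09) for the +1 form and 3.68 for the annotated start. The +1 form of miR-215-5p rose by 2.84 (SE 0.14, adjusted p = 8.09e-09), from 370.1 to 432 RPM in Low to 2708 to 3021 in Negative libraries. miR-192-5p did not follow its relatives, with 20165 to 23821 RPM in Low and 16121 to 19401 in Negative libraries. In ratio, 1 of 7 members differed among sorted populations (miR-215-3p), against 12.3% of all 310 shifted entries.

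The +1 forms of endocrine and sensory miRNAs were lower in Negative than in Low cells. Of 9 members, 4 rose and 0 fell in High against Low, and 0 rose and 7 fell from Low to Negative, counts that rescaling left at 4 and 7. Of the 4, miR-183-3p reached 10 RPM in High libraries only, so its rise follows from the rule that chose it. Over all 588 entries as deposited, 7.99% rose and 20.1% fell in High against Low. From Low to Negative, 16.5% rose and 49.5% fell. miR-183-5p stood at 1617, 1659 and 1607 RPM in High, 507, 491 and 492 in Low, 305, 270.0 and 342 in Sublow, and 159.6, 142 and 162 in Negative libraries. No 2 sorted populations overlapped, and the rise in High against Low was 1.71 (SE 0.11, limma adjusted p = 1.01e-06). miR-182-5p, its cluster partner, rose by 1.5 (SE 0.18, adjusted p = 9.26e-05). miR-7a-1-5p, an endocrine regulator, was alike in High (919.6 to 1362 RPM) and Low (908 to 966) and fell by 3.59 from Low to Negative, to 64.6 to 87.2 RPM. Its ratio stayed at 0.0349 to 0.042 in all 14 libraries. miR-7b-5p fell by 7.05 on the pseudocount scale, to 4.56, 0 and 1.96 RPM in Negative libraries. For miR-375-3p the rise of 0.83 in High against Low (adjusted p = 0.0356) was lost without High replicate 1, 2 or 3 or Low replicate 2 or 3 (adjusted p up to 0.12).

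All 13 members of let-7 and miR-98 were lower in level in Negative than in Low cells as deposited, and after rescaling 7 were lower and 1 (let-7g-5p) higher. As deposited, 49.5% of all 588 entries were called lower and 16.5% higher. In ratio, limma called 0 of the 13 among sorted populations and in each of the 4 pairs. let-7g-5p, the most abundant, was at 897, 841 and 1012 RPM in High, 1122, 1196 and 1197 in Low, 1134, 1261 and 1304 in Sublow, and 903, 865 and 775 in Negative libraries. Low and Sublow overlapped and lay above High and Negative. let-7b-5p had the lower ratio of 0.00942 to 0.0117, and fell in level by 0.74 from Low to Negative (SE 0.16, adjusted p = 0.0013), to 471 to 497 RPM.

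The epithelial miR-200 family, which represses Zeb factors, was higher in High than in Low cells for part of its members. Of 6 members 3 rose in High against Low and 0 fell, also after rescaling, and all 6 fell from Low to Negative, of which 2 fell after it. As deposited, 7.99% of all 588 entries rose and 20.1% fell in High against Low, and 49.5% fell from Low to Negative. miR-200a-3p was at 1243 to 1442 RPM in High, 706 to 924 in Low, 466 to 614 in Sublow and 451 to 523 in Negative libraries, a rise of 0.79 in High (SE 0.14, limma adjusted p = 0.00111). miR-200b-3p fell by 1.46 from Low to Negative (SE 0.14, adjusted p = 2.95e-06). Of the 6, 0 differed in ratio among sorted populations, and the ratio of miR-200a-3p lay at 0.0474 to 0.0565 in all libraries.

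The proliferation-linked miR-17-92 cluster and its paralogs were lower in High than in Low cells. Of 7 members 6 fell in High against Low (5 after rescaling) and 4 fell from Low to Negative (2 after rescaling). As deposited, 20.1% of all 588 entries fell in the first comparison and 49.5% in the second. The count of 4 is near the latter share and is no result about this list. miR-92a-1-3p stood at 135, 85.3 and 171 RPM in High, 331, 276 and 448 in Low, 139, 167 and 175 in Sublow, and 93.6, 92.5 and 126 in Negative libraries. Low lay above every other library, and the fall in High was 1.45 (SE 0.25, limma adjusted p = 0.00126). Of the 7, 0 differed in ratio among sorted populations. For miR-148a-3p, outside this cluster, the fall of 1.27 in High against Low was lost without High replicate 1 or Low replicate 1 or 2 (adjusted p up to 0.106).

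Of 4 members linked to differentiation (miR-22, miR-203, miR-378 and miR-802), 3 rose and 0 fell from Low to Negative, also after rescaling, and 2 differed in ratio among sorted populations. As deposited, 16.5% of all 588 entries rose and 49.5% fell, and 12.3% of the 310 shifted entries differed in ratio. miR-203-3p was at 246, 328 and 306 RPM in High, 887, 1247 and 863 in Low, 1551, 1260.1 and 1629 in Sublow, and 1498, 1524 and 1457 in Negative libraries. High lay far below all others, by 1.75 against Low (SE 0.17, limma adjusted p = 2.48e-05). miR-22-3p, with low +1 levels of 10 to 74.8 RPM, rose by 2.07 from Low to Negative (SE 0.35, adjusted p = 0.000286). Of 4 members of miR-21, miR-31, miR-221 and miR-222, 1 rose and 2 fell from Low to Negative (2 and 1 after rescaling). Beside the shares of all entries, these counts are no result about this list. miR-31-5p, linked to regeneration, rose by 1.14 from Low to Negative (adjusted p = 0.000447). miR-21-5p rose by 0.61 from Low to Sublow (adjusted p = 0.0197), and its ratio lay at 0.0196 to 0.0235 in all libraries.

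In the remaining lists, calls from Low to Negative as deposited were counted: 4 of 7 members of miR-29 and miR-30, 5 of 5 of miR-181, 2 of 2 of miR-15/16, 3 of 4 of miR-23, miR-24 and miR-27, and 2 of 3 of miR-10, miR-99, miR-100 and miR-125 fell, and 0 rose. After rescaling these counts of falls were 0, 1, 0, 0 and 2, and 1 member of miR-29 and miR-30 rose. Of 5 members of miR-26, miR-101, miR-103 and miR-107, 2 rose and 3 fell, and of 2 members of miR-148 and miR-152, 1 fell. Of all 588 entries 49.5% were called lower in this comparison, so counts such as 4 of 7 or 2 of 3 are no result about these lists. Among the 5 of miR-181, miR-181d-5p reached 10 RPM in Low libraries only, so its fall follows from the rule that chose it. Hairpin copies are counted separately here. Both miR-15/16 members are copies of miR-16-5p, and miR-24-3p, miR-181a-5p, miR-30c-5p and miR-26a-5p also enter as copy pairs. Within each of these pairs the levels differed by at most 2.55% in any library, so a pair is hardly more than 1 measurement. No member of the lists in this paragraph differed in ratio among sorted populations.

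miR-10a-5p, a Hox-cluster miRNA whose level marks position along the gut, varied between libraries of a population. Its +1 form was at 245, 250.4 and 626 RPM in High, 39.6, 77 and 684 in Low, 13.4, 16.6 and 489 in Sublow, and 5.48, 8.14 and 64.7 in Negative libraries. Replicate 3 was the highest in all 4 populations. The spread left no call between Negative and Low (-3.04, SE 1.39, limma adjusted p = 0.0725) in this fit, which does not pair libraries. By replicate number, Negative lay below Low each time (5.48 against 39.6, 8.14 against 77 and 64.7 against 684 RPM). Whether same-numbered libraries are pairs is not known. The ratio stayed at 0.567 to 1.03 in the sorted libraries. The +1 form of miR-5115 also varied within groups, at 401, 6.33 and 12.9 RPM in High and 6863, 2586 and 871 in Negative libraries. Its rise of 3.71 from Low to Negative (adjusted p = 0.0266) was lost without Low replicate 2 or 3 or Negative replicate 1 or 2 (up to 0.101).

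Some members come from hairpin copies with the same mature sequence. Of 96 mature names, 12 had 2 copies, and in 6 of these pairs the copies differed by at most 5 percent in every library. Other pairs were listed with different values, up to 94.1% apart in level for miR-92a-3p and 76.6% for miR-194-5p. How reads were assigned to copies is not given in the sources used here. Counts above take each copy as a member. The +1 form of miR-1843-5p had the same value as the annotated miR-1843b-5p in 12 of 14 libraries, so reads of the one may be reads of the other.

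The shifted seed of 27 members equals the annotated seed of another mouse miRNA, and 14 shifted seeds are shared by several mature names. The seed shown above for let-7g-5p belongs to 8 mature names of let-7 and miR-98, and it is the seed of miR-196a and miR-196b. Counting 1 copy per name, these +1 forms summed to 4308 RPM ± 470 (SD, n = 3) in High and 4930 ± 111 in Low libraries. They summed to 3937 ± 360 in Sublow, 2594 ± 183 in Negative and 3053 ± 392 (n = 2) in Non-sorted libraries. Annotated miR-196a and miR-196b together reached 35.7, 100.8, 160.2 and 16.2 RPM in replicate 3 of High, Low, Sublow and Negative and at most 1.6 in every other library. In every library, reads with this seed that came from let-7 outnumbered those of the miRNA for which the seed is known.

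For miR-27b-3p the shifted seed is that of miR-128-3p, a miRNA abundant in brain. The quantities were of the same order, and furthest apart in High replicate 2 (165.1 against 78.9 RPM). The +1 form was at 97.7, 165 and 119 RPM in High, 131, 161 and 102 in Low, 71.8, 72.4 and 54.6 in Sublow, and 62.1, 55.9 and 66.4 in Negative libraries. Annotated miR-128-3p was at 78.9 to 100.1, 89.8 to 109, 82.8 to 109 and 48.7 to 61.8 RPM in the same order. The +1 form was the higher in 5 of 6 High and Low libraries the lower in all 3 Sublow libraries and the higher in all 3 Negative libraries. The +1 forms of miR-17-5p, miR-20a-5p and miR-93-5p, with the seed of miR-291a-3p, summed to 34.4 RPM ± 18.1 in High, 103 ± 20 in Low, 95.3 ± 5.92 in Sublow and 61.9 ± 2.6 in Negative libraries. Annotated miRNAs with this seed summed to 807 to 1869 RPM in the 7 libraries that list miR-295-3p and to 0 in all others. Which of the sums is higher therefore follows from that listing. Shared seeds are a description of the letters, and no target was measured.

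**Figure D5:**
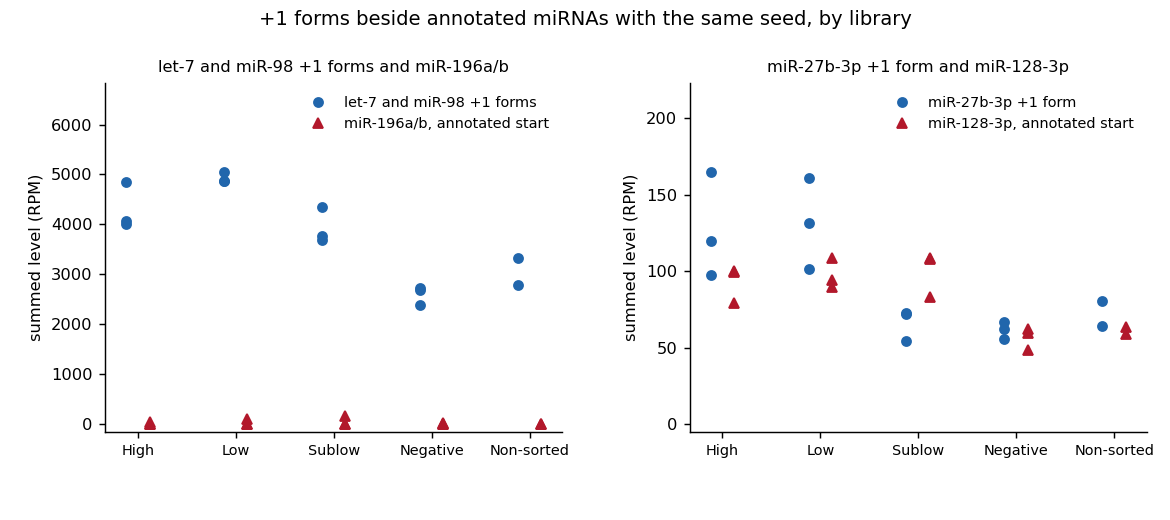
Summed level in RPM (y axis) in each library by population for +1 forms (circles) and for annotated miRNAs with the same seed (triangles), let-7 and miR-98 beside miR-196a/b on the left and miR-27b-3p beside miR-128-3p on the right. The let-7 group lies at 2384 to 5058 RPM against at most 160.2 for miR-196a/b. The miR-27b-3p points lie at 54.6 to 165.1 RPM and those of miR-128-3p at 48.7 to 108.6.

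The members of the embryonic miR-290 cluster are set by the 7 libraries named above. The +1 forms of miR-295-3p (272 to 600.6 RPM where listed), miR-292-3p (96.6 to 213), miR-291a-3p and miR-294-3p were listed in exactly these 7 libraries, and that of miR-293-3p in 6. Where listed, the ratio was alike in all populations, with means of 0.647 to 0.688 for miR-295-3p and 1.7 to 1.83 for miR-292-3p. The part of these libraries in other results was not tested beyond the values given without them. In level, 62 members differed among sorted populations when only the other 7 libraries were used, and 56 between Low and the lone Negative library among them.

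Entries of other starts were compared by the same ratio. It differed among sorted populations in 8 of 108 +1 entries (7.4%), 4 of 69 entries starting 1 base upstream (5.8%), 18 of 72 starting at least 2 bases downstream (25%) and 8 of 61 starting at least 2 upstream (13.1%). The median ratio was 0.0369, 0.00962, 0.00319 and 0.21 in the same order. These classes differ in level as well, and no test of the difference between them was made.

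The first bases of members with a sequence were compared as a description. Of 81 mature names, 53.1% begin with U at the annotated start, against 44.0% of 216 annotated names past the limit. After loss of that base the +1 forms begin with A in 43.2% and G in 33.3%. Of the 20 names with a ratio over 0.1 the +1 form begins with A in 11 and G in 2, and of the 61 at or below 0.1 with A in 39.3% and G in 41.0%.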

How the data were processed

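Small RNA libraries were made with the TriLink CleanTag kit, per the labels' protocols. The authors deposited 1 table of RPM over miRNA entries, in which each library sums to 1000000. The genome build is mm9, per the submitters' processing notes, while aligner and counter are named in no source used here. Only 70.4 to 85.1% of low values were whole reads within 0.1 read, so reads were not recovered and no count test was run.

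Members and miRNA lists were chosen with earlier results of these data known. Levels were fitted as log2(RPM + 1) over 588 entries, and ratios as log2((shifted RPM + 1)/(annotated RPM + 1)) over 310 shifted entries. This scale understates changes of low entries. All 14 libraries entered one limma model of 5 group means (version 3.58.1, R 4.3.3), with trended empirical Bayes moderation. All tests were two-sided at an adjusted p of 0.05, adjusted by Benjamini-Hochberg across every fitted entry. Both fits were run on simulated reads with set changes in High and the same fixed spread for every entry. The simulation held no lane, replicate or miR-290 differences, so it does not show how the fits behave with those.

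Named members were the 12 with the highest mean level, the 8 with the highest ratio (annotated mean at least 10), the 8 smallest p of the ratio F test (at least 50 RPM in the highest group), up to 5 per direction and comparison past the threshold without overlap (at least 50 RPM), those with seed matches, those at the limit, and members of 14 lists. Other named members were chosen after their values were seen. Alternatives changed the pseudocount, treatment of zeros, filter, scaling, trend and model terms, and left out each library. Python 3.11.15 with matplotlib 3.10.9 made the figures.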

Additional observations from a re-analysis of the deposited data

How the results depend on the processing

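The levels of let-7g-5p and miR-192-5p in Negative against Low were called in opposite directions as deposited (-0.47 and -0.31) and after median-ratio rescaling (0.41 and 0.57). Counts below are of members called. Ratio among sorted populations: 3 with a pseudocount of 0.1, 23 with 5, 16 without a filter, 1 with a lane term, 5 without the trend and 0 with only the 7 libraries that do not list miR-295-3p, against 8. Ratio, High against Low: 0 with a pseudocount of 5, 2 with a common floor, 2 as a share of all listed starts, 5 without a filter, 2 with a lane term, 2 with a term for miR-295-3p and 0 with the 7 libraries, against 1. Ratio, Sublow against Low: 3 with a pseudocount of 5, 1 with a common floor, 2 without a filter and 1 with a term for miR-295-3p, against 0. Ratio, Negative against Sublow: 0 with a pseudocount of 0.1, 6 with 5, 0 with zeros as missing, 0 with a filter of 50, 3 without a filter, 2 with a term for miR-295-3p and 0 with the 7 libraries, against 1. Ratio, Negative against Low: 17 with a pseudocount of 5, 10 without a filter, 0 with a lane term, 1 without the trend and 0 with the 7 libraries, against 4. Level, High against Low: 24 without a filter and 21 with the 7 libraries, against 39. Level, Sublow against Low: 31 with median-ratio rescaling, 31 with quantile normalization and 28 with a lane term, against 53. Level, Negative against Sublow: 23 with rescaling and 18 with the 7 libraries, against 37. Level, Negative against Low: 52 with rescaling and 50 with a lane term, against 80. The cause was not tested. The set of 7 libraries was chosen after seeing the data, and it holds 2 High, 2 Low, 2 Sublow and 1 Negative library, so that the lone Negative library is assumed to vary like the other groups.

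Leaving out 1 library at a time, ratio counts ran from 4 to 9 among sorted populations, 1 to 3 for High against Low, 0 to 1 for Sublow against Low, 1 to 2 for Negative against Sublow and 1 to 5 for Negative against Low. Level counts ran from 79 to 88, 22 to 38, 40 to 57, 33 to 41 and 73 to 82 in the same order.

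With the replicate number as a block, ratio counts were 10, 1, 1, 2 and 4 and level counts 84, 37, 54, 41 and 81 in that order. In ratio among sorted populations the block ended the call of miR-320-3p (limma adjusted p = 0.0565) and brought miR-192-5p (0.0136) and miR-5109 (0.0106) past the threshold. Same-numbered libraries also share a prefix in the sample descriptions, whose meaning the labels do not give, so whether they are pairs is not known. Deviations of same-numbered libraries correlated over 0.1 in 17 of 26 pairs for levels (median r = 0.329) and 10 of 26 for ratios (0.0325), against 11 of 52 (-0.106) and 14 of 52 (-0.0255) for different numbers. Among sorted libraries, level correlations were 0.575 to 0.755 for replicate 2, 0.0766 to 0.776 for replicate 3 and -0.354 to 0.58 for replicate 1. Not every pair passed 0.1, and by that rule the fit without the block was kept. The rule cannot decide on pairing, because deviations from a group mean cancel within the group and so tie the correlations to each other. The correlations also went with the listing of miR-295-3p. Negative replicate 1 lists it and correlated in level at 0.484, 0.607 and 0.706 with replicate 2 of High, Low and Sublow, which list it. With replicate 1 of High, Low and Sublow, which do not, the values were -0.231, -0.211 and -0.354. Pairing and this listing cannot be told apart here.

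Depth limits low members: 24 of 108 were at 0 in at least 1 library, and a 0 means under about 10 reads.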
